A study of Bos taurus with 8 samples.

Results

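CH25H, INSIG1 and HMGCS1 are 3 genes of sterol metabolism that were measured by RNA-seq in bovine endothelial cells given LIF (leukemia inhibitory factor), a cytokine of the interleukin 6 family. They were selected by measured values: their identifiers come from the authors' table of 120 genes with a called LIF response in BCE cells, and they are 3 of the 25889 rows of the count table. The LIF effect in BCE cells is therefore given for them as a description, with no test. BCE cells are bovine choroidal endothelial cells, from the capillary bed behind the retina, and BAE cells are bovine aortic endothelial cells. Both came from commercial suppliers. For BCE cells the maintenance medium, DMEM low in glucose with bovine calf serum, also held glutamine, bFGF and VEGF, and the plates were coated with fibronectin, while BAE cells were kept in such DMEM with the serum alone. Before treatment, BCE cells spent 3 h in assay medium with 10% serum and BAE cells 3 h in assay medium with 1% serum, so cell type, culture history and serum cannot be told apart in any comparison between them. LIF was then given at 10 ng/ml for 6 h, and the vehicle was BSA in PBS. Each of the 4 groups (BAE with vehicle, BAE with LIF, BCE with vehicle, BCE with LIF) held 2 libraries, which the methods call biological replicates, with no statement that they came from separate animals.

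Cells hold their sterol content steady by feedback. When membranes are low in sterol, SCAP carries the transcription factor SREBP2 from the endoplasmic reticulum to the Golgi, where it is cut and released to switch on the enzymes of cholesterol synthesis and the receptors of lipoprotein uptake. INSIG1 is a membrane protein that holds SCAP in the endoplasmic reticulum when sterol is plentiful, and its own gene is a target of SREBP. HMGCS1, the cytosolic HMG-CoA synthase, catalyses an early step of the mevalonate pathway and is another such target. CH25H, cholesterol 25-hydroxylase, turns cholesterol into an oxysterol that binds INSIG proteins and so keeps SREBP from being processed. CH25H is also known as a gene that interferons and other inflammatory signals induce, and its product acts on immune cells as well.

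Library totals ranged from 18600598 to 35269335 counts, and 3 counts corresponded to between 0.0851 and 0.161 CPM, the unit of counts scaled to library size. Replicate libraries differed beyond counting noise in every group, with a chi-square per degree of freedom between 2.64 and 10.1. Only the authors' table of called genes paired identifiers with names, for the 109 genes used here. Of 90 genes on 7 lists of sterol and LIF pathways, 4 were named there: FDFT1 among 18 other enzymes of cholesterol synthesis, VLDLR among 18 genes of sterol uptake and transport, and STAT3 and SOCS3 among 5 genes of LIF receptor signaling and feedback. None of the 14 genes of SREBP regulation, the 10 LXR genes, the 10 genes of oxysterol metabolism or the 15 genes of fatty acid synthesis had a name, and neither did any of 38 markers of endothelial or other cell types, so these genes and the identity of the cells were not analysed here. Levels are given in CPM with TMM-scaled library sizes and are compared between libraries, never between genes, since gene length was not used.

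CH25H rose with LIF in BAE cells and was higher with LIF in BCE cells, the cells it was selected on. In BAE cells CH25H stood at 65.0 and 63.4 CPM with vehicle and at 432.0 and 430.6 CPM with LIF. In BCE cells it stood at 15.1 and 9.54 CPM with vehicle and at 72.0 and 64.7 CPM with LIF. The LIF and vehicle libraries were far apart in both cell types. The 2 BCE vehicle libraries were the most uneven pair, 1.58-fold apart, and their counts, 449 and 230, were the lowest of the 8.

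INSIG1 moved the other way. It was at 78.7 and 78.0 CPM in the BAE vehicle libraries and at 32.9 and 40.0 CPM in the BAE LIF libraries. In BCE cells INSIG1 was at 79.0 and 80.9 CPM with vehicle and at 54.2 and 58.7 CPM with LIF. No LIF library reached a vehicle library, and the lowest 2 values were those of the LIF-treated BAE cells.

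HMGCS1 was also lower with LIF in both cell types. It stood at 144.5 and 141.7 CPM in BAE cells with vehicle and at 78.1 and 84.5 CPM with LIF. In BCE cells HMGCS1 stood at 231 and 237 CPM with vehicle and at 160.6 and 168.8 CPM with LIF. The 4 groups of HMGCS1 did not overlap, and the LIF-treated BCE libraries were still above the vehicle-treated BAE libraries. Such separation is common. LIF libraries lay wholly below vehicle libraries, as for INSIG1 and HMGCS1, for 28.6% of genes tested in BAE and 19.6% in BCE cells. How many genes had all 4 groups apart was not counted.

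**Figure D1:**
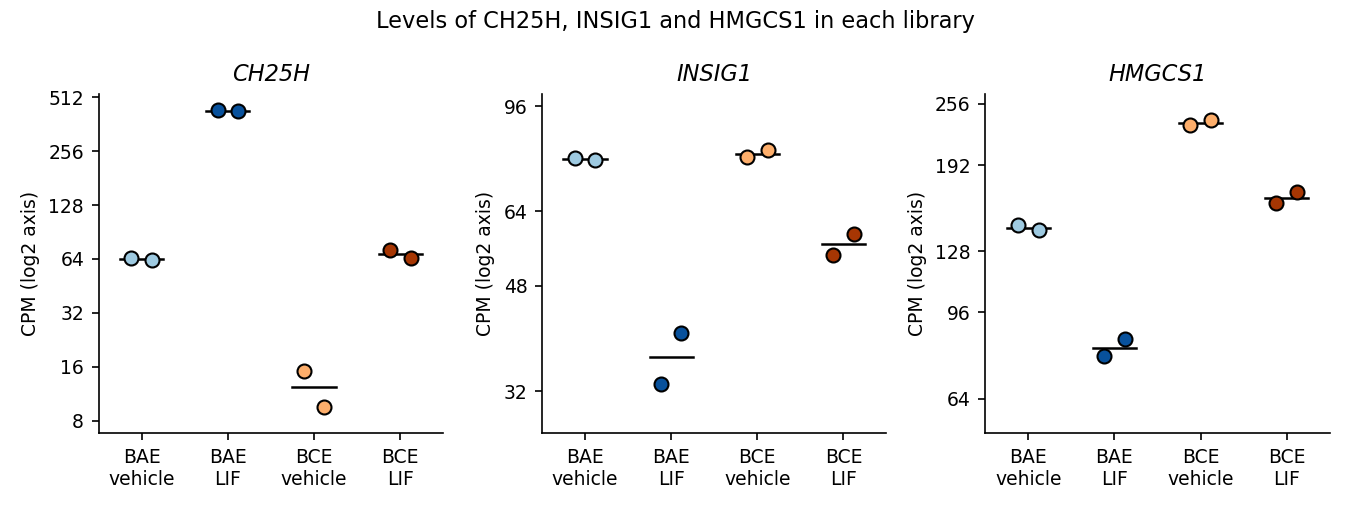
Level of CH25H, INSIG1 and HMGCS1 in CPM on a log2 axis, with 1 point for each of the 8 libraries and a line at the mean of each group of 2. In both cell types the LIF points of CH25H lie above the vehicle points, while those of INSIG1 and HMGCS1 lie below, and the BCE vehicle points of CH25H are 1.58-fold apart.

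The LIF effect in BAE cells was not used to select the genes, although they were picked with results of both cell types in view. CH25H rose 6.86-fold there, a log2 fold change of 2.78 (SE 0.0449, 95% interval 2.68 to 2.87, adjusted p = 1.66e-16 in edgeR's quasi-likelihood test). It ranked 11 from the top of the 13034 genes tested. INSIG1 fell to 47.7% of its vehicle level (log2 fold change -1.07, SE 0.0749, 95% interval -1.23 to -0.91, adjusted p = 1.97e-08 in the same test). HMGCS1 fell to 58.1% (log2 fold change -0.78, SE 0.0491, 95% interval -0.89 to -0.68, adjusted p = 4.76e-09). Among the 1115 genes called lower, INSIG1 was number 64 and HMGCS1 number 130 by size. Counted from the lowest of all 13034 genes tested, they were at ranks 94 and 226. The background of this comparison was high, with 13.6% of all genes tested called higher with LIF and 8.55% called lower. Without regard to any test, LIF and vehicle libraries did not overlap for 30.8% of all genes in the higher and 28.6% in the lower direction, so the lack of overlap in 1 gene says little by itself. All 3 calls held with each library left out in turn, with log2 fold changes of 2.76 to 2.79 for CH25H, -1.22 to -0.95 for INSIG1 and -0.85 to -0.74 for HMGCS1.

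In BCE cells, which gave the selection, the level of CH25H with LIF was 5.49-fold that with vehicle (log2 fold change 2.46, SE 0.154, 95% interval 2.11 to 2.80). It was the largest increase among the 90 genes called higher in these cells and rank 2 of all 13014 genes tested. The value was 2.85 without the first BCE vehicle library and 2.18 without the second. INSIG1 was at 70.6% of its vehicle level (log2 fold change -0.50, SE 0.0645, 95% interval -0.65 to -0.36), and HMGCS1 at 70.4% (log2 fold change -0.51, SE 0.0509, 95% interval -0.62 to -0.39). Among the 30 genes called lower, HMGCS1 was number 8 and INSIG1 number 10 by size. Counted from the lowest of all 13014 genes tested, called or not, they were at ranks 386 and 392. Calls were far rarer than in BAE cells, with 0.692% of genes called higher and 0.231% called lower, and libraries did not overlap for 20.3% and 19.6%. Nothing is read from these shares for the 3 genes, since this contrast chose them. The smallest absolute log2 fold change computed here among the 120 genes of the authors' table was 0.26. Among 4712 genes outside that table with a mean BCE level of at least 41.5 CPM, the lowest of the 3 genes, the largest absolute value was 0.76, above those of INSIG1 and HMGCS1. The size of the change alone therefore did not set membership.

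FDFT1, the squalene synthase at the branch toward sterols, lay below its vehicle level in both cell types. It owes its name to the same BCE table, so its BCE value is a description too. In BAE cells FDFT1 was at 108.2 and 104.7 CPM with vehicle and at 68.2 and 72.6 CPM with LIF. It fell to 67.6% (log2 fold change -0.56, SE 0.0515, adjusted p = 4.87e-07 in edgeR's test). In BCE cells FDFT1 was at 132.4 and 137.9 CPM with vehicle and at 102.1 and 103.0 CPM with LIF, or 76.0%. The LIF and vehicle libraries of FDFT1 did not overlap in either cell type. The same held in this direction for 28.6% of all genes tested in BAE and 19.6% in BCE cells. Its BCE interval on the log2 scale (-0.51 to -0.28) overlapped those of INSIG1 and HMGCS1, so the 3 lowered genes were not separated by their intervals there.

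VLDLR, a receptor for lipoproteins rich in triglyceride, went up. It stood at 88.7 and 93.8 CPM in BAE cells with vehicle and at 122.9 and 128.5 CPM with LIF, a rise of 0.50 on the log2 scale (SE 0.0481, adjusted p = 9.56e-07 in edgeR's test). In BCE cells VLDLR was at 159.2 and 164.2 CPM with vehicle and at 203.8 and 205.2 CPM with LIF, a log2 difference of 0.34 (SE 0.0490). The named genes of sterol uptake and synthesis therefore did not share 1 direction. Of 1115 genes called lower in BAE cells 19 had a name, and 3 of those were INSIG1, HMGCS1 and FDFT1. Of the 30 called lower in BCE cells 23 had a name, these 3 among them. Of 12457 genes tested in both cell types, 21 were called lower in both, and the 3 sterol genes were among the 17 of these with a name. Every name, those of these 3 genes included, came from the authors' calls in BCE cells. Nothing is therefore read from these counts.

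Of the 5 listed genes of the LIF pathway itself, the 2 with a name, STAT3 and SOCS3, were higher with LIF in both cell types. They too owe their names to the BCE table, so their BCE values are a description. STAT3, the transcription factor that LIF activates through JAK kinases, rose by 0.99 on the log2 scale in BAE cells (SE 0.0415, adjusted p = 3.88e-11 in edgeR's test), and its BCE difference was 0.63. SOCS3, the feedback inhibitor of the receptor, rose by 3.44 in BAE cells (SE 0.0875, adjusted p = 1.01e-13), and its BCE difference was 1.21. Mean SOCS3 levels went from 6.27 ± 0.314 to 67.1 ± 3.65 CPM in BAE cells and from 10.1 ± 0.494 to 23.4 ± 0.663 CPM in BCE cells (SD, n = 2). SOCS3 had the larger log2 difference of the pair in BAE cells, and CH25H, at 2.46, had the larger one in BCE cells.

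**Figure D2:**
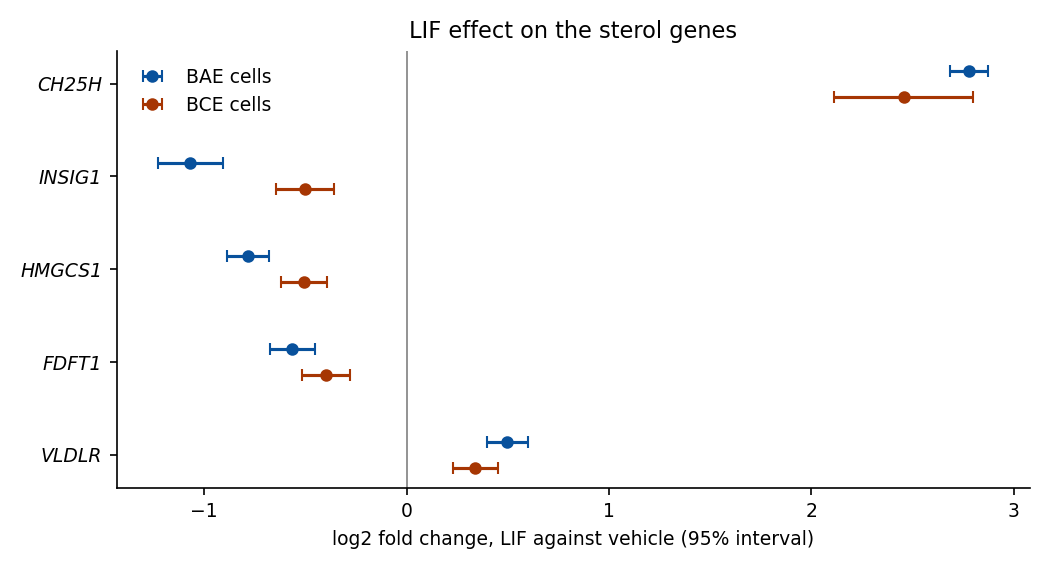
Log2 fold change with LIF against vehicle for CH25H and 4 other sterol genes, in BAE cells and in BCE cells, with the 95% interval from edgeR's fit on the 4 libraries of each cell type. CH25H and VLDLR lie above 0 and the other 3 below 0, and the BAE and BCE intervals of INSIG1, -1.23 to -0.91 and -0.65 to -0.36, do not meet.

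**Figure D3:**
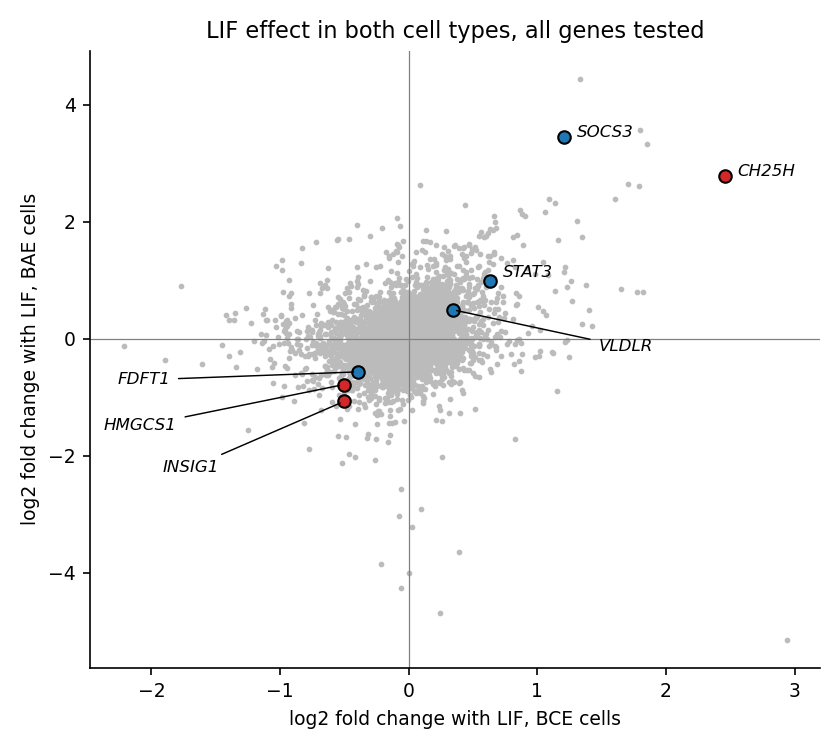
Log2 fold change with LIF in BCE cells on the x axis and in BAE cells on the y axis, for 12457 genes tested in both, with CH25H, INSIG1 and HMGCS1 in red and 4 other named genes in blue. CH25H lies at 2.46 and 2.78 in the upper right, apart from most genes, while INSIG1, HMGCS1 and FDFT1 lie at the lower left edge of the central cloud.

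Counts of a pair of genes within 1 library do not depend on how libraries are scaled, which allowed a closer look at how the lowered genes moved against each other. The share itself depends on gene lengths, so only its change between libraries is read, and its exact 95% binomial intervals cover counting error only. INSIG1 took 35.2% (34.2 to 36.3) and 35.5% (34.2 to 36.9) of the summed INSIG1 and HMGCS1 counts in the BAE vehicle libraries. With LIF its share was 29.6% (27.8 to 31.6) and 32.1% (30.5 to 33.7), so INSIG1 was reduced more than HMGCS1 in both BAE LIF libraries, by an amount that differed between them. In BCE cells the share was 25.4% and 25.5% with vehicle and 25.2% and 25.8% with LIF. The 4 BCE intervals overlapped, so no change in the balance of INSIG1 and HMGCS1 was detectable there at this depth. An exact two-sided permutation test of 2 against 2 shares cannot give a p below 0.333, and none was run.

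The share of FDFT1 in the summed FDFT1 and HMGCS1 counts was also compared. FDFT1 went from 42.8% and 42.5% of the pair's counts to 46.6% and 46.2% in BAE cells, and from 36.4% and 36.8% to 38.9% and 37.9% in BCE cells. The libraries did not overlap between LIF and vehicle in either cell type, although some counting intervals met in BCE cells. HMGCS1 was thus lowered more than FDFT1 in BAE cells. In BCE cells the shift had the same direction and was smaller. There the interval of the first LIF library (37.7 to 40.0) lay above that of the first vehicle library (35.5 to 37.3). All other pairs of LIF and vehicle intervals met in BCE cells.

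The ratio of CH25H to HMGCS1 counts combined both directions in 1 number per library. It was 0.449 and 0.448 in BAE cells with vehicle and 5.53 and 5.09 with LIF. In BCE cells it was 0.0653 and 0.0403 with vehicle and 0.448 and 0.383 with LIF. The LIF-treated BCE libraries thus had a ratio near or below that of untreated BAE cells. The ratio of CH25H to INSIG1 counts was 0.825 and 0.813 in BAE cells with vehicle, 13.1 and 10.8 with LIF, 0.191 and 0.118 in BCE cells with vehicle and 1.33 and 1.10 with LIF. Against INSIG1, the LIF-treated BCE cells stood above untreated BAE cells.

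**Figure D4:**
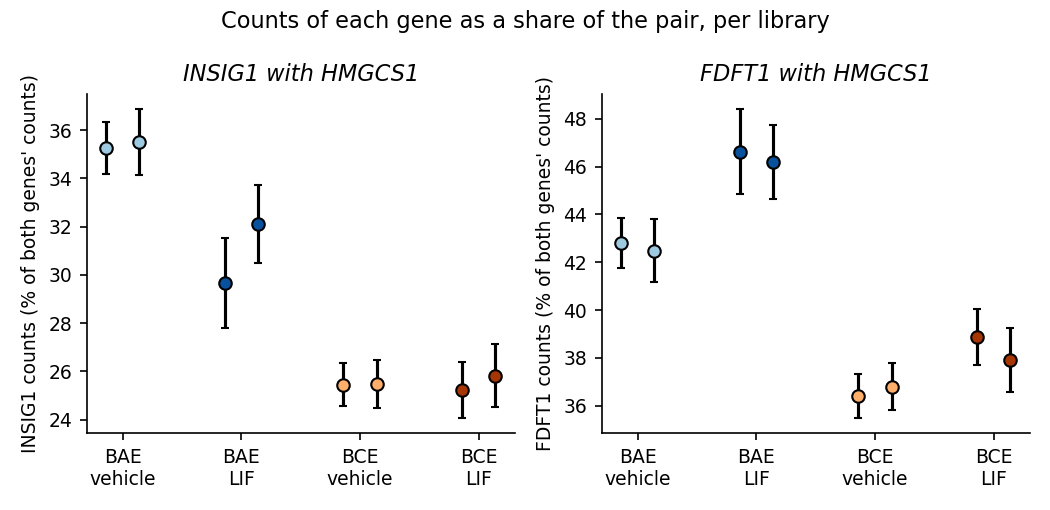
Counts of INSIG1 and FDFT1 as a percentage of each gene's counts summed with those of HMGCS1, in the 8 libraries, with exact 95% binomial intervals for counting error; the y axes do not start at 0. The INSIG1 share is lower with LIF in BAE cells and level in BCE cells between 25.2% and 25.8%. The FDFT1 share is higher with LIF in BAE cells and, by less, in BCE cells, where some intervals meet.

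The 2 cell types differed in their levels of the 3 genes before any LIF was given. CH25H in BCE cells with vehicle, 12.3 ± 3.93 CPM (SD, n = 2), was 19.3% of the 64.2 ± 1.07 CPM in BAE cells, a log2 difference of -2.37 (SE 0.155, adjusted p = 9.61e-08 in edgeR's quasi-likelihood test). HMGCS1 was 1.63-fold higher in BCE cells, at 234 ± 3.96 against 143 ± 2.04 CPM, a log2 difference of 0.71 (SE 0.0522, adjusted p = 3.03e-07). INSIG1 showed no detectable difference, at 79.9 ± 1.39 against 78.3 ± 0.487 CPM, with a log2 difference of 0.025 and a 95% interval of -0.11 to 0.16 (adjusted p = 0.751). FDFT1 was higher in BCE cells by 0.34 on the log2 scale (adjusted p = 0.000312). VLDLR was higher by 0.82 (adjusted p = 1.64e-07). Such differences were common, with 26.2% of 13426 genes called higher in BCE cells and 27.6% called lower. The tests use the BCE libraries on which the 3 genes were selected and the others named. Their p-values are therefore not free of that selection, and no separate support is read from them. As these are bulk samples, fewer cells of a type and less RNA per cell cannot be told apart.

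With LIF the 2 cell types differed in all 3 genes. CH25H in BCE cells, 68.3 ± 5.17 CPM, was 15.9% of the 431 ± 1.01 CPM in BAE cells (log2 difference -2.65, SE 0.0498, adjusted p = 1.88e-27 in edgeR's test). INSIG1 was 1.54-fold higher in BCE cells, at 56.4 ± 3.24 against 36.4 ± 4.98 CPM (log2 difference 0.62, SE 0.0743, adjusted p = 2.11e-08). HMGCS1 was 2.02-fold higher, at 165 ± 5.79 against 81.3 ± 4.55 CPM (log2 difference 1.02, SE 0.0502, adjusted p = 5.67e-17). Here 31.7% of 13217 genes were called higher in BCE cells and 32.2% lower. These comparisons share their libraries with the LIF effects, and they restate the same 8 values from the other side. They include the BCE libraries that selected the genes, so their p-values are not free of that selection either.

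**Figure D5:**
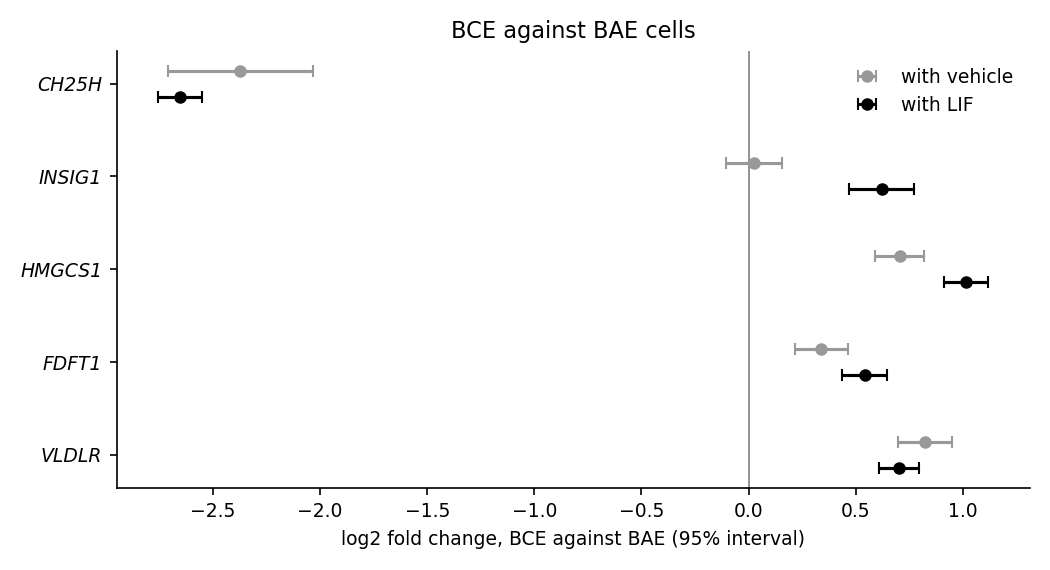
Log2 difference of BCE against BAE cells for the 5 sterol genes, with vehicle in grey and with LIF in black, and 95% intervals from edgeR's fits on 4 libraries each. CH25H lies below 0 under both treatments, INSIG1 lies at 0.025 with vehicle and 0.62 with LIF, and the other 3 genes lie above 0 under both.

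The levels of each gene could thus be put in order over the 4 groups. For CH25H the LIF-treated BAE cells were highest and the vehicle-treated BCE cells lowest. Between them, LIF-treated BCE libraries (64.7 and 72.0 CPM) and vehicle-treated BAE libraries (63.4 and 65.0 CPM) overlapped, so these neighbours did not differ beyond their spread. For INSIG1 both vehicle groups were at the top and not separable by the test, followed by BCE cells with LIF and BAE cells with LIF. For HMGCS1 the order was BCE with vehicle, BCE with LIF, BAE with vehicle and BAE with LIF, with no overlap between neighbours. The share of all genes with such an order was not counted. The comparison of LIF-treated BCE with vehicle-treated BAE cells changes 2 factors at once and was not tested.

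The LIF effects of the 2 cell types were compared through their difference, fitted on all 8 libraries. It contains the BCE contrast that selected the genes, so it is given with its error and no p. For INSIG1 the BCE effect was 0.60 above the BAE effect on the log2 scale (SE 0.106, 95% interval 0.37 to 0.82), which is a smaller fall in BCE cells. For HMGCS1 the difference was 0.31 (SE 0.0727, 95% interval 0.15 to 0.46), again a smaller fall in BCE cells. For CH25H it was -0.29 (SE 0.155, 95% interval -0.63 to 0.036), and it changed with the uneven BCE vehicle pair: it was 0.082 without the first of these libraries and -0.59 without the second. The fold rise of CH25H in the 2 cell types can therefore not be ordered from these data, while its level can. For FDFT1 the difference was 0.20 (95% interval 0.042 to 0.35) and for VLDLR -0.13 (-0.27 to 0.022). Across all 13646 genes tested for this difference, 1.16% were called higher and 2.52% lower in BCE than in BAE cells.

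The pattern of each gene over the 8 libraries was compared with all other genes by Pearson's r of log2 CPM. The libraries share cell types and treatment, so r is a description of the 4 groups. Of 13645 other genes, 108 had a name, and all of these came from the authors' table for BCE cells. SELP, the P-selectin of endothelial granules, was closest to CH25H, with r = 0.995, the highest of all genes, named or not. ARID5B followed with r = 0.986 and TARS, the threonyl-tRNA synthetase, with r = 0.984. At the opposite end of the named genes FDFT1 had the lowest value with CH25H, r = -0.989, next to HMGCS1 with -0.979. INSIG1 was less closely opposed to CH25H, with r = -0.876. For HMGCS1 the closest named genes were FDFT1 with r = 0.982, ID3, an inhibitor of DNA binding by helix-loop-helix factors, with r = 0.963, and TNFAIP8L1 with r = 0.933. For INSIG1 they were ID3 with r = 0.926, FDFT1 with r = 0.925 and RGCC, a regulator of the cell cycle, with r = 0.893. HMGCS1 itself reached r = 0.852 with INSIG1, which put it at rank 214 among all genes. Over r = 0.95, HMGCS1 had 127 genes (0.931% of all genes compared), CH25H had 65 (0.476%) and INSIG1 had 20 (0.147%).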

How the data were processed

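RNA-seq was done on 8 libraries, 2 in each of 4 groups. The authors aligned reads to the bovine genome Bos_taurus_UMD_3.1 with TopHat (version 2.0.12) and Bowtie (version 2.2.3), counted them per gene with HTSeq (version 0.6.1) and deposited raw counts, without normalization. The setting for strand is not given in the sources used here, so overlapping genes are uncertain. The authors' table of called genes (DESeq, version 1.18.0: fold changes and p-values) served only for names and membership. The file labelled for BAE cells held the same bytes as that for BCE cells and was not used. Rows without an Ensembl identifier (1273, labelled as new genes, 1.79% of counts) stayed in the fits.

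The counts were tested with edgeR (version 4.0.16, in R version 4.3.3): filterByExpr (minimum count 10, minimum total 15), TMM, the quasi-likelihood test fitted over all genes, with p-values adjusted after Benjamini-Hochberg and called under 0.05. Each pair of groups was fitted on its 4 libraries and the difference of LIF effects on all 8. Standard errors came from the log2 fold change and F. Log2 CPM used a prior count of 2. The scripts were tested on simulated data. Alternatives were DESeq2 (version 1.42.0) as test or for size factors, other filters, a replicate block, all 8 libraries together, and each library left out. The named genes were the 3 genes and all listed pathway genes with a name, plus the 3 most alike by r, and 1 listed gene is not reported here. Genes and lists were chosen with earlier results of these data known. P-values measure only the spread between these libraries.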

Additional observations from a re-analysis of the deposited data

Results flagged for a closer look

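The difference of the LIF effects (BCE minus BAE, log2 scale) was 0.60 for INSIG1 and 0.31 for HMGCS1. Both are listed because they were called, at an adjusted p under 0.05, in edgeR's test of this difference. The values contain the BCE contrast that selected the genes, so they are a description and nothing is read from that test. With each library left out in turn the value ranged from 0.47 to 0.75 for INSIG1 and from 0.25 to 0.37 for HMGCS1. The assay serum was 10% for BCE and 1% for BAE cells, so serum and cell type cannot be told apart here.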

How the results depend on the processing

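The other settings gave 90 values of the 3 genes for the LIF effect in BAE cells and both comparisons of BCE with BAE cells. All 90 kept their direction and side of the threshold. Both comparisons of BCE with BAE cells use the BCE libraries that chose the genes. The same count was not made over all genes, so nothing is read from it. The LIF effect in BCE cells and the difference of LIF effects rest on the contrast that chose the genes, so their values are given with no reading of calls. The difference for CH25H, -0.29 with all libraries, ranged from -0.59 without the second BCE vehicle library to 0.082, a reversed sign, without the first, and was -0.29 without a filter on low counts. INSIG1 in BCE cells ranged from -0.56 to -0.44 (the latter without BCE LIF replicate 1), and the difference for HMGCS1 ranged from 0.25 to 0.37. Leaving 1 out gives an arm of a single library, which is assumed to vary like the others.

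The number of genes called for LIF in BAE cells was 2889, and 1920 with DESeq2's test (left out: 1807, without BAE LIF replicate 1, to 2905). For LIF in BCE cells it was 120, and 437 without a filter, 226 with the replicate block and 217 with all 8 libraries in 1 fit. With a library left out it ranged from 55 to 1423: 1423 and 477 without BCE vehicle replicates 1 and 2, 56 and 55 without BCE LIF replicates 1 and 2. For the difference of LIF effects it was 502, and 889 without a filter (left out: 261 to 948, the latter without BCE vehicle replicate 1). The causes of these shifts were not tested.

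Replicate numbers, taken from the sample titles, did not pair the libraries, with correlations of deviations between -0.0531 and 0.100. The replicate block changed no call of the 3 genes in those 3 comparisons. The count columns carry other numbers for some libraries, and pairing by those was not examined. Levels per kilobase were not run. The 3 genes had 230 or more counts in every library.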
